A study of Mus musculus with 6 samples.

Results

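The genes described here are the 10 genes of the vascular endothelial growth factor (VEGF) family and its receptors that have probes on the arrays: the ligands Vegfa, Vegfb, Vegfc, Vegfd (Figf on the array) and Pgf, the receptors Flt1, Kdr and Flt4, and the co-receptors Nrp1 and Nrp2. Members were every non-control spot whose annotation names one of these genes, which gave 15 probes on 34 spots, of 55681 probes and 59305 spots and of 22220 named genes in all. RNA was compared between 1G11-mock and 1G11-SOD3 cells, with 3 arrays for each line. 1G11 is a mouse microvascular endothelial cell line, labelled with the strain C57BL/6NCrLBR, and 1G11-SOD3 cells overexpress extracellular superoxide dismutase 3, a secreted enzyme that removes superoxide. Before RNA was taken, both lines had spent 6 h in conditioned medium from N202.1A, a murine mammary cancer line, so no array shows either line without that medium. Each group is a single modified line, whether these are clones or pools is not given in the sources used here, and the 3 arrays of a line measure the spread between samples of that line only. All 6 arrays lie on 1 slide, with the 1G11-mock arrays in slide row 2 and the 1G11-SOD3 arrays in slide row 1, so cell line and slide row cannot be told apart.

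VEGF ligands are secreted dimers that act on receptor tyrosine kinases of endothelial cells. VEGF-A binds Flt1 (VEGFR-1) and Kdr (VEGFR-2), and Kdr carries most of its signal for proliferation, migration and permeability, whereas Flt1 binds tightly and signals weakly. VEGF-B and placental growth factor (Pgf) bind Flt1, VEGF-C and VEGF-D are ligands of Flt4 (VEGFR-3), the receptor of lymphatic growth, and the neuropilins Nrp1 and Nrp2 bind VEGFs and class 3 semaphorins.

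In 1G11-SOD3 cells the Vegfd probe was 2.78-fold higher and a probe of Nrp2 was 2.43-fold lower than in 1G11-mock cells. The Nrp2 call was lost after position adjustment and in 4 of the 6 fits that left out 1 array, and the other Nrp2 probe did not pass. Both Vegfa probes read lower on every 1G11-SOD3 array than on any 1G11-mock array, by 1.95-fold and 2.48-fold, but neither passed both parts of the test. The Kdr probe nearer the start of its transcript was well above background on every array, Flt4 stayed below background throughout, and the probe of Vegfc, which passed the test as higher, did not pass after its place on the array was taken into account.

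Sequences of 3 promoter stretches go with these results. The 250 bases before the RefSeq start of Vegfa, Vegfd and Nrp2 (GRCm38.p6) are shown because these genes have a probe outside the middle of the array that was called as normalized or after position adjustment. Capitals in them mark the letters GGGCGG, known as a GC box, on either strand, and before Vegfd the letters of the promoter element that is named after its thymines and adenines.
Vegfa, chr17:46032378-46032627, minus strand: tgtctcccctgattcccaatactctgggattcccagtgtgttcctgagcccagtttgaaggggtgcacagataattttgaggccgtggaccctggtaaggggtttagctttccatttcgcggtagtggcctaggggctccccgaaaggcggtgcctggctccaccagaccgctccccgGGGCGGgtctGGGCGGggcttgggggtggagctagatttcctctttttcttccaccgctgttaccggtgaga
Vegfd, chrX:164373272-164373521, plus strand: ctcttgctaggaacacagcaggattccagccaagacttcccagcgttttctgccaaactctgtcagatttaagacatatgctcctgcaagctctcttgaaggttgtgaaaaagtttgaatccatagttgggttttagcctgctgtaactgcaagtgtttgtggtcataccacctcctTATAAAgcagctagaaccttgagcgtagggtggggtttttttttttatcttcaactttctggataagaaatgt
Nrp2, chr1:62703067-62703316, plus strand: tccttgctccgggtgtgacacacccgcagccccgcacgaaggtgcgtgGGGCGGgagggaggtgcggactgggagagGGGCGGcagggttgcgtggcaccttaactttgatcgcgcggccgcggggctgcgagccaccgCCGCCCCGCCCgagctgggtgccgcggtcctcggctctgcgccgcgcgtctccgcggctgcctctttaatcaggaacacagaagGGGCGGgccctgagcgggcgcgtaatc
The Vegfa stretch held 2 matches to GGGCGG and the Nrp2 stretch held 5, of which 2 overlap, whereas the Vegfd stretch held none and had 1 match to TATAAA. Of all 32851 RefSeq promoter stretches of this length, 32.7% held GGGCGG and 12.4% held TATAAA. None of the 3 stretches held the AP-1 letters TGANTCA, present in 6.75% of all stretches. The core of the hypoxia response element, ACGTG, was also missing from these windows and present in 16.6% of all. RefSeq gives a second Vegfa start, whose stretch is not shown and held 1 match to ACGTG and 1 to the GC box. The GC content was 42.4% before Vegfd, 59.2% before Vegfa and 72.4% before Nrp2. Such matches describe the letters and do not show that a factor binds there.

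Values are log2 intensities after background correction and quantile normalization, and a probe was called where it differed by over 2-fold with a limma adjusted p under 0.05, adjusted over all 55681 probes. Between 34.2% and 43.8% of spots were well above background by the scanner's own mark, with no saturated spot. Sod3 itself read 13.61, 12.66 and 9.86 on the 1G11-mock arrays and 16.37, 16.29 and 16.27 on the 1G11-SOD3 arrays, a log2 difference of 4.27 ± 0.70 (SE, n = 3 per line; limma adjusted p = 0.00791), so the arrays go with their labels. Its spot falls in the array's middle, a central block of its rows and columns where 1G11-mock arrays read low. Over 128 bright probes printed 10 times, with copies both there and elsewhere, the median copy in the middle was lower than its copies elsewhere by a log2 value of -0.67, -0.87 and -2.42 on the 1G11-mock arrays and differed by 0.15, -0.18 and 0.10 on the 1G11-SOD3 arrays. After a smooth surface of position was taken off each array, the Sod3 difference was 2.85 (adjusted p = 0.0226). Without 1G11-SOD3 replicate 3 and with no surface taken off, it was 4.32 with an adjusted p of 0.0507. For each member the value after this position adjustment is given where it moved the result, and members whose only spot lies in the middle come apart from the rest.

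Of the 15 VEGF probes, 8 were well above background on all 6 arrays, 4 were so on none, and 11, from 9 of the 10 genes, were so on all arrays of at least 1 line. The test called 3 of the 15 probes, 2 higher and 1 lower, where 2.92% of all probes were called, 1.86% higher and 1.05% lower. Most probes over the whole array were dim. With dim probes left out the same 3 of the 11 VEGF probes were called, beside 1803 of 19796 probes in all. One of the 3, Vegfc, has its only spot in the middle of the array, where 11.6% of probes were called against 1.82% of probes with no spot there. The 3 arrays of a line did not overlap with those of the other for 7 of the 15 probes, where 20.6% of all probes showed no overlap. The main test took the lines as unpaired. As an alternative the replicate numbers of the labels were taken to pair samples across lines, which the labels do not state. These numbers are also the slide columns. With that number as a block 5 of the 15 probes were called, a probe of Vegfa and a probe of Flt1 being added. Calls over all 55681 probes also rose with it, from 1624 to 2241. After position adjustment 2 of the 15 were called, Vegfd and Vegfa probe 2, where 1.65% of all probes were. The plot of log2 intensity by array shows every member probe.

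**Figure D1:**
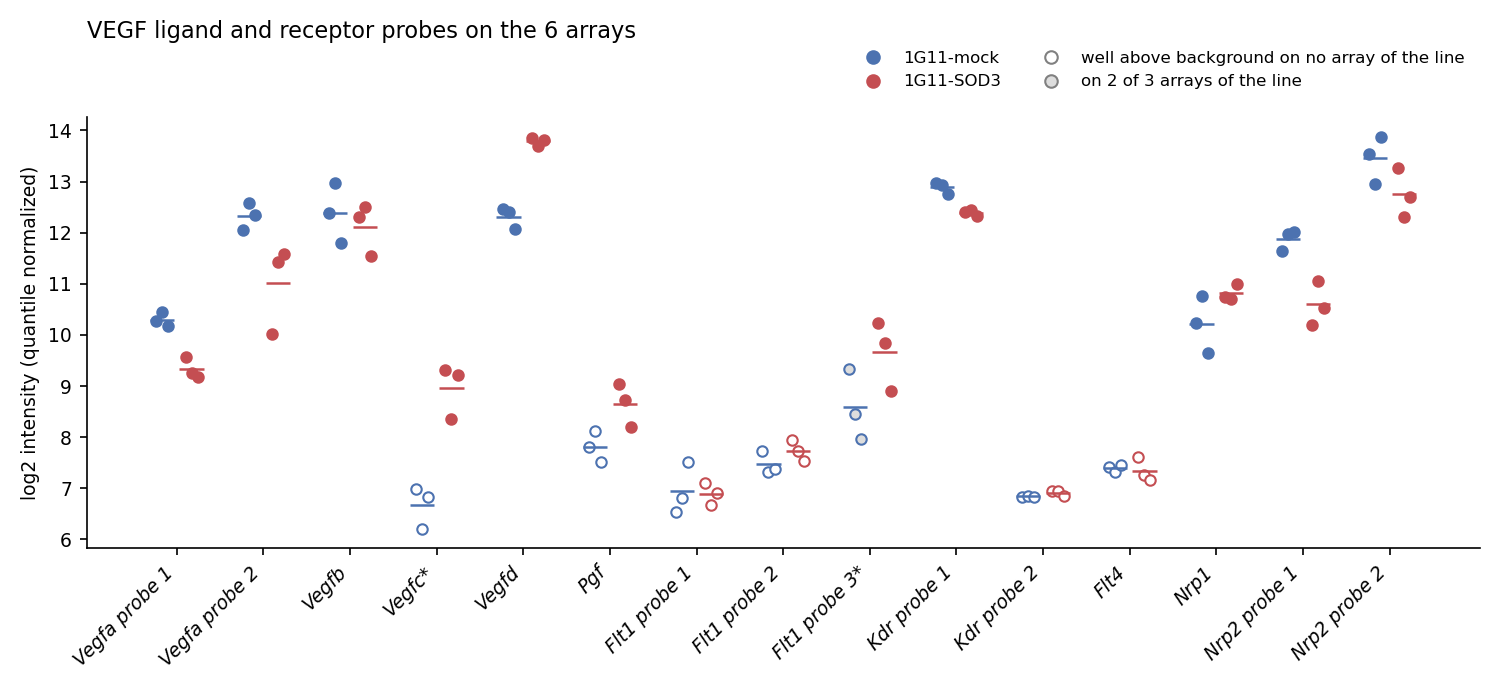
Log2 intensity (vertical axis, quantile normalized) of the 15 probes of VEGF ligands, receptors and co-receptors, with a point for each of the 3 arrays of 1G11-mock (blue) and 1G11-SOD3 (red) and a bar at the mean. White points mark lines in which the probe was well above background on no array, light grey points on 2 of 3, and an asterisk marks probes printed only in the array's middle. The Vegfd points of 1G11-SOD3 sit between 13.69 and 13.86, all above the 1G11-mock points, which reach 12.47.

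Among the ligands, Vegfd, named Figf on the array for c-fos-induced growth factor and known for its part in lymphatic vessel growth, was called higher in 1G11-SOD3 cells. Its mean over 10 copies was 12.47, 12.40 and 12.06 on the 1G11-mock arrays and 13.86, 13.69 and 13.81 on the 1G11-SOD3 arrays. All 1G11-SOD3 arrays were higher than all 1G11-mock arrays. The log2 difference was 1.47 ± 0.22 (SE, n = 3 per line, limma adjusted p = 0.00496), with a 95% interval of 0.99 to 1.96. All 10 copies read higher in 1G11-SOD3 cells, by log2 values of 0.88 to 1.90, and single copies spanned 11.49 to 12.77 on the 1G11-mock arrays and 13.30 to 14.16 on the 1G11-SOD3 arrays, with no overlap. Only 1 of the 10 copies lies in the middle, and it gave both the 1.90 and the 11.49. The largest difference among the copies elsewhere was 1.73. With the middle left out the difference was 1.42 (limma adjusted p = 0.00596), and the position-adjusted difference was 1.42 (adjusted p = 0.00180). Leaving out any 1 array kept the call, with differences of 1.34 to 1.55. The array annotation places the probe at chrX:160840395-160840454, on a genome build that it does not name.

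**Figure D2:**
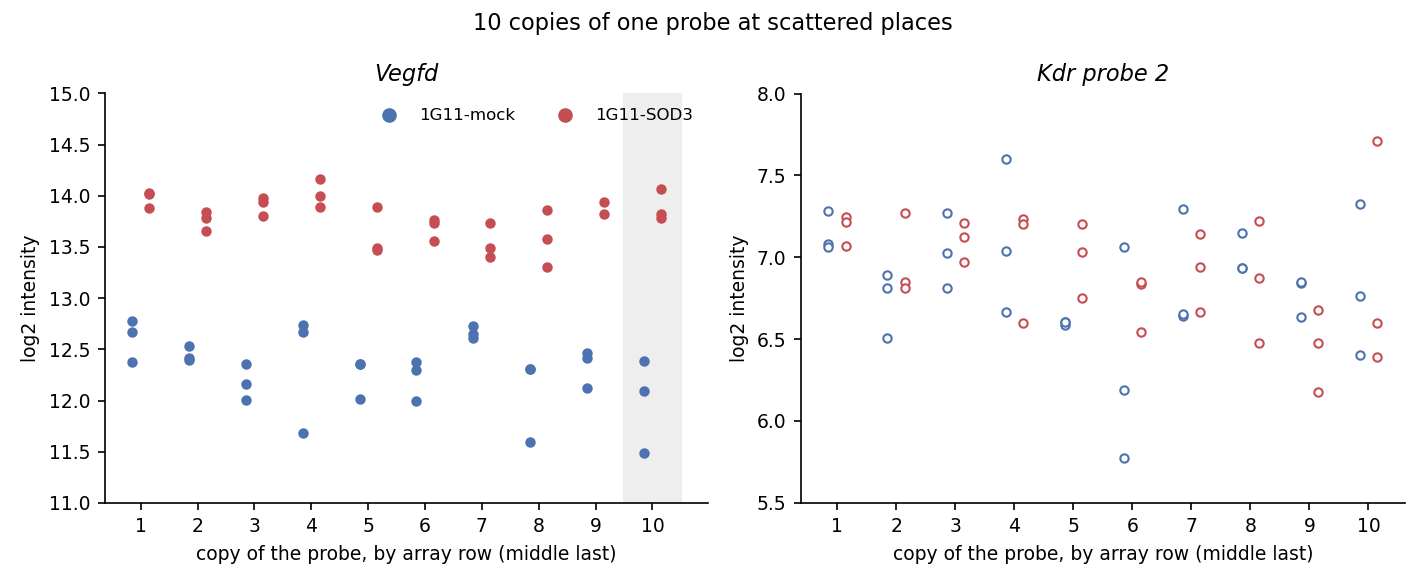
Log2 intensity of each of the 10 copies of the Vegfd probe and of Kdr probe 2 (horizontal axis, copies by array row with any copy in the middle of the array placed last and shaded), with a point for each array of 1G11-mock (blue) and 1G11-SOD3 (red). The Vegfd points of the lines do not overlap at any copy, and the open points of Kdr probe 2 lie between 5.77 and 7.71, none of them well above background. The vertical axes differ.

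Vegfa, the main ligand of blood vessel growth, has probe 1 and, at position 3026 of transcript variant 1, probe 2 (chr17:46154387-46154446, on the same unnamed build). Probe 1 read 10.26, 10.44 and 10.18 in 1G11-mock cells and 9.56, 9.26 and 9.17 in 1G11-SOD3 cells. Probe 2 read 12.06, 12.57 and 12.34 in 1G11-mock cells and 10.02, 11.43 and 11.58 in 1G11-SOD3 cells. For both probes every 1G11-SOD3 array was lower than every 1G11-mock array, and replicate 1 of 1G11-SOD3 was far below the other two for probe 2 only. The difference of probe 1 was -0.96 ± 0.22 (SE, n = 3 per line, limma adjusted p = 0.0421), under the 2-fold limit, with an interval of -1.45 to -0.47. With any 1 array left out its adjusted p lay between 0.0649 and 0.177. The difference of probe 2 was -1.31 ± 0.37 (SE, n = 3 per line, limma adjusted p = 0.0992), with an interval of -2.13 to -0.49, and it was -0.81 without 1G11-SOD3 replicate 1. With the replicate block its adjusted p was 0.0218, and after position adjustment its difference was -1.22 (adjusted p = 0.0179), so it was called in both. Neither probe has a spot in the middle, and the 2 copies of probe 2 differed by -1.50 and -1.12 between lines. Within an array, probe 1 minus probe 2 was -1.79, -2.13 and -2.17 in 1G11-mock cells and -0.46, -2.18 and -2.41 in 1G11-SOD3 cells, which overlap (exact permutation test, two-sided p = 1). With 3 arrays per line that test cannot go below 0.1.

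Vegfb, a Flt1 ligand linked to metabolism in heart and muscle, read 12.38, 12.96 and 11.79 in 1G11-mock cells and 12.30, 12.50 and 11.55 in 1G11-SOD3 cells. The lines overlapped, and the difference of -0.27 ± 0.34 (SE, n = 3 per line, limma adjusted p = 0.779) did not pass. Leaving out 1G11-mock replicate 2 or 1G11-SOD3 replicate 3 turned it to 0.024 and 0.018. Pgf, a Flt1 ligand first found in placenta, was well above background on all 1G11-SOD3 arrays, at 9.04, 8.72 and 8.20, and on no 1G11-mock array, where it read 7.82, 8.12 and 7.51. The lines did not overlap. With no position adjustment the mean of the 1G11-SOD3 arrays was at least 1.62-fold that of the 1G11-mock arrays. This was counted from the lowest signal well above background on each 1G11-mock array, or from the dim value itself where that was higher. The bound allows for dim readings and not for the spread between arrays. The fit gave 0.84 (limma adjusted p = 0.160), with an interval of 0.24 to 1.44, and did not pass. Position adjustment brought the difference to 0.44, a 1.36-fold difference that is under that bound.

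Vegfc, the other ligand of Flt4, has its only spot in the middle of the array. It read 6.99, 6.21 and 6.84 on the 1G11-mock arrays, none well above background, and 9.32, 8.36 and 9.22 on the 1G11-SOD3 arrays, all well above it. With no position adjustment it was at least 2.10-fold higher in 1G11-SOD3 cells by the same bound, and the fit gave a log2 difference of 2.29 (limma adjusted p = 0.00285). The surface itself differed by 2.16 (log2) between lines at this spot. After it was taken off, the arrays read 7.25, 7.25 and 8.56 in 1G11-mock cells and 8.30, 7.82 and 8.18 in 1G11-SOD3 cells. The lines then overlapped, with a difference of 0.41 (adjusted p = 0.662), so a difference in Vegfc RNA and the place of its spot cannot be told apart here. The spot counted as bright through the 1G11-SOD3 arrays alone, so the surface of bright spots was also taken off its dim 1G11-mock values. Whether that surface holds for values so near background was not tested.

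Among the receptors, Kdr gave unlike readings with its 2 probes. Probe 1, at position 4291 of the transcript, read 12.98, 12.94 and 12.76 in 1G11-mock cells and 12.41, 12.44 and 12.32 in 1G11-SOD3 cells. The lines did not overlap, but the difference of -0.50 ± 0.21 (SE, n = 3 per line) did not pass (limma adjusted p = 0.300), with an interval of -0.97 to -0.04. Probe 2, at position 5377 of the transcript, is printed 10 times, and none of its 30 spot readings in either line was well above background. The probe means lay between 6.83 and 6.95 over the 6 arrays. Why these readings differ was not tested, and the Kdr values here rest on probe 1.

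Flt1 has 3 probes, of which probes 1 and 2 were well above background on no array. Probe 3, at position 6201 and with its only spot in the middle of the array, read 9.32, 8.46 and 7.97 in 1G11-mock cells, well above background on 2 of 3 arrays, and 10.23, 9.84 and 8.91 in 1G11-SOD3 cells, on all 3. The lines overlapped, with a difference of 1.07 (limma adjusted p = 0.219). With the replicate block the adjusted p was 0.0237 and the probe was called, whereas after position adjustment the difference was 0.12. Flt4, the receptor of VEGF-C and VEGF-D, has a single probe, which read 7.17 to 7.62 and was well above background on no array. This probe therefore gave no measured level of Flt4 in either line.

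Of the co-receptors, Nrp2 has probes at position 4343 of transcript variant 5 (probe 1, chr1:62843298-62843357) and at position 6601 of variant 1 (probe 2, chr1:62865129-62865188). Probe 1 read 11.65, 11.97 and 12.02 in 1G11-mock cells and 10.20, 11.06 and 10.54 in 1G11-SOD3 cells. All 1G11-SOD3 arrays were lower, and the difference of -1.28 ± 0.26 (SE, n = 3 per line, limma adjusted p = 0.0251) was called, with an interval of -1.86 to -0.70. The call was lost without 1G11-mock replicate 2 (adjusted p = 0.102), 1G11-mock replicate 3 (0.0783), 1G11-SOD3 replicate 1 (0.115) or 1G11-SOD3 replicate 3 (0.0927), with differences of -1.50 to -1.06 over all 6 arrays left out in turn. After position adjustment it was -0.97 (adjusted p = 0.0208), just under 2-fold. Probe 2 read 13.54, 12.94 and 13.87 in 1G11-mock cells and 13.26, 12.31 and 12.70 in 1G11-SOD3 cells. The lines overlapped there, and the difference of -0.70 did not pass (limma adjusted p = 0.335), with an interval of -1.38 to -0.02. Probe 1 minus probe 2 within an array differed by -0.58 between lines (exact permutation test, two-sided p = 0.4), in a test that cannot go below 0.1, so whether the probes moved unequally is not settled here.

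Nrp1, which strengthens VEGF-A signalling through Kdr, read 10.23, 10.77 and 9.64 in 1G11-mock cells and 10.75, 10.70 and 11.01 in 1G11-SOD3 cells. The lines overlapped, and the difference of 0.61 had an interval of -0.03 to 1.24 (limma adjusted p = 0.373). The plot of log2 fold changes sets the 11 probes side by side with and without the position adjustment.

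**Figure D3:**
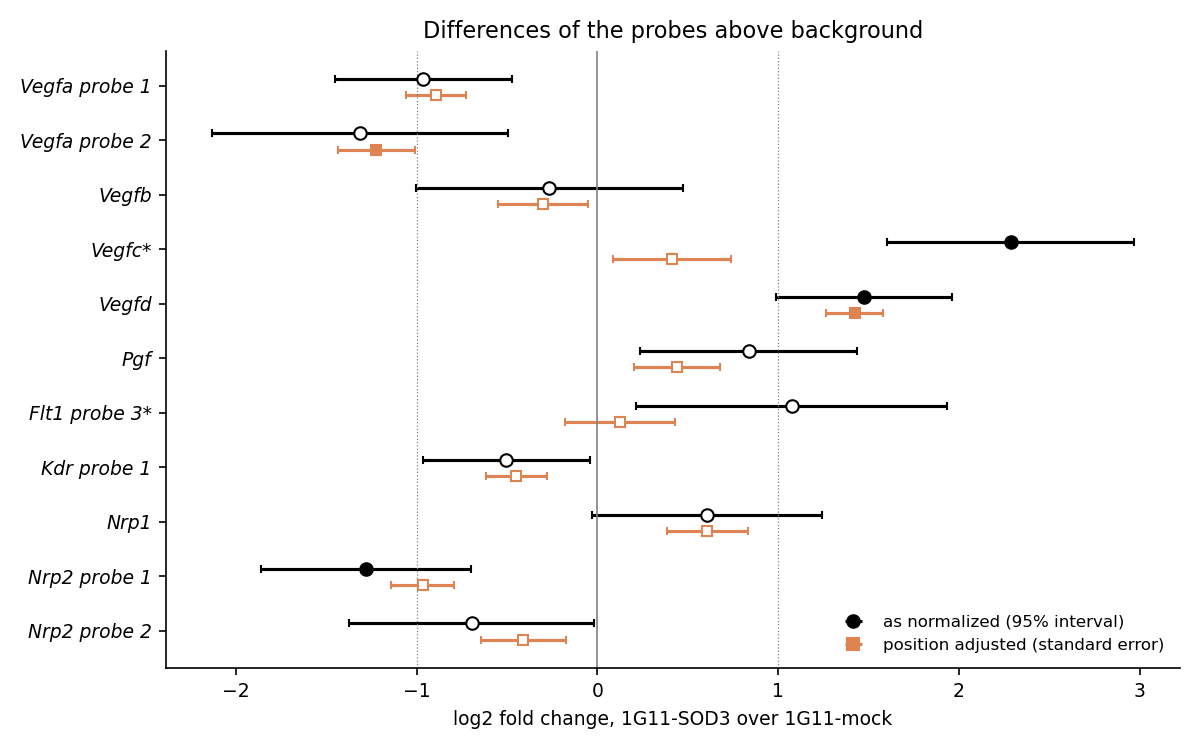
Log2 fold change of 1G11-SOD3 over 1G11-mock (horizontal axis) for the 11 probes well above background on all arrays of at least 1 line, as normalized (black circles, bars are 95% intervals) and after position adjustment (orange squares, bars are standard errors). Filled symbols were called, dotted lines mark 2-fold, and an asterisk marks probes printed only in the array's middle. Vegfd stays near 1.47 and 1.42, whereas Vegfc moves from 2.29 to 0.41, where its 2.29 is no bound because 1G11-mock cells were below background.

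The other genes of the pathway were taken as a list of 78, each by its brightest probe. All 78 were on the array, 64 were well above background on all arrays of a line and 11 had no probe above it on any array. Of the 22220 named genes 11307 were well above background on all arrays of a line, so the shares below include many dim genes. The test called 7 of the 78, where 4.65% of named genes were called. Of these, 4 were higher and 3 lower, where 2.93% of named genes were called higher and 1.72% lower. The list median of the log2 difference was -0.04, beside -0.03 over all 22220 named genes. With position adjusted for, the calls were 2 higher and 2 lower, where 1.47% and 1.25% of named genes were. These were Adamts1, Prkcb and Ptprj, called before, and Cav1, the main protein of caveolae, which went from 0.89 (limma adjusted p = 0.0547) to 1.11 (adjusted p = 0.00514). None of the 5 genes that process VEGF-C and VEGF-D and none of the 13 neuropilin ligands and partners was called by its brightest probe, although 1 of the 2 probes of Sema3a was called higher. By brightest probe 3 of 18 receptor modulators were called higher and 1 lower, 2 of 27 signal relay genes were lower, and 1 of 15 genes of the calcineurin-NFAT branch and target genes was higher.

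Adamts1, a secreted protease that can bind VEGF-A, read 10.58, 9.75 and 10.35 in 1G11-mock cells and 12.36, 13.10 and 12.54 in 1G11-SOD3 cells. The lines lay far apart, with a difference of 2.44 (limma adjusted p = 0.00121) and 2.55 after position adjustment. Prkcb, the beta form of protein kinase C, read 9.60, 9.48 and 9.78 in 1G11-mock cells and was well above background on no 1G11-SOD3 array, at 7.50, 7.52 and 7.08. By the bound used for Pgf, here counted on the 1G11-SOD3 arrays, its mean was at least 4.15-fold lower in 1G11-SOD3 cells. The fit gave a log2 difference of -2.25 (limma adjusted p = 0.000496), and both Prkcb probes were called lower. Ptprj, a receptor phosphatase that acts on Kdr, read 12.22, 12.02 and 12.45 in 1G11-mock cells and 10.37, 10.49 and 10.12 in 1G11-SOD3 cells. Its difference was -1.90 (limma adjusted p = 0.00144) and -1.25 after adjustment, and 1 of its 4 probes was called. Sphk1, which makes sphingosine 1-phosphate, differed by -1.06 (limma adjusted p = 0.0284), called in 1 of its 2 probes, and by -0.83 after adjustment, under 2-fold. The remaining 3 called genes have their spots in that middle region and were not called after adjustment. In log2 differences, Epn1, an endocytic adaptor of Kdr, was at 3.14 (limma adjusted p = 0.0451) and then 1.48. Itgb3, the integrin β3 chain, was at 1.36 (limma adjusted p = 0.0289), called in 1 of its 2 probes, and then 0.69. Ptprb, the phosphatase VE-PTP, was at 2.34 (limma adjusted p = 0.00285), called in 1 of its 2 probes, and then 1.08. Ptprb was well above background on no 1G11-mock array. With no position adjustment its mean was at least 4.14-fold higher in 1G11-SOD3 cells by the bound used for Pgf, and the adjusted value is under that.

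**Figure D4:**
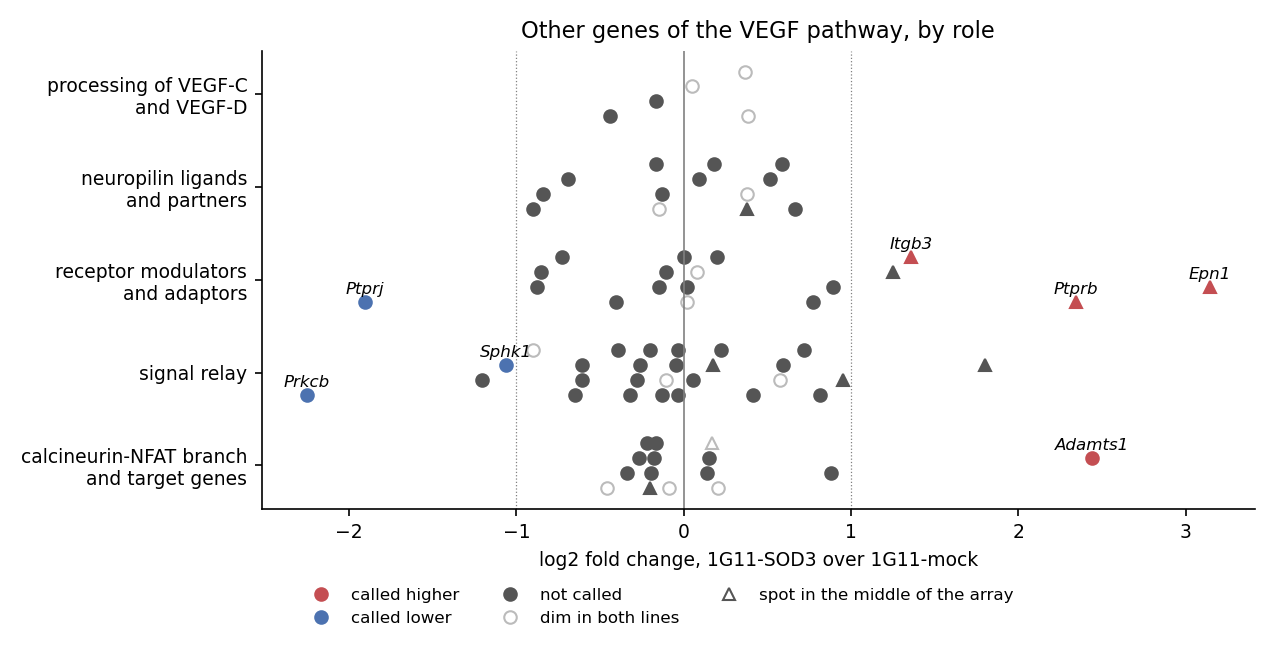
Log2 fold change of 1G11-SOD3 over 1G11-mock (horizontal axis) for the 78 other genes of the VEGF pathway, each by its brightest probe, in rows by role. Red and blue symbols were called higher and lower, open symbols were not well above background on all arrays of either line, triangles have their spot in the array's middle and dotted lines mark 2-fold. The 3 red triangles Epn1, Ptprb and Itgb3 share the receptor modulator row.

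The label endothelial was checked against 12 marker genes, of which Kdr and Flt1 are also among the VEGF genes described here. Kdr, by its probe 1 only, and Esam were well above background on all 6 arrays. Of the 12, 6 had no probe above it on any array: Cdh5 (VE-cadherin), Tek, Tie1, Emcn, Erg and Robo4. The study's methods state that VE-cadherin staining of 1G11 cells was checked regularly, a protein measure that is not in these arrays. Pecam1 was well above background on 2 of 3 arrays of each line, and Cldn5 on 1 1G11-mock array and no 1G11-SOD3 array. Flt1 and Egfl7 were so on 2 of 3 1G11-mock arrays and all 3 1G11-SOD3 arrays. The mean log2 intensity over the 12 was 7.94 to 8.25 in 1G11-mock cells and 8.32 to 8.68 in 1G11-SOD3 cells. The median log2 difference over the 12 was 0.075 as normalized and -0.025 after position adjustment, which moved Esam from 1.22 to -0.27. Only Egfl7 was called, at 1.82 (limma adjusted p = 0.0175), and it was at 0.89 and not called after position adjustment. Of 4 lymphatic endothelial markers, Prox1 and Flt4 were above background on no array and Pdpn, also found on fibroblasts, was called higher at 2.59 (limma adjusted p = 0.000398) and at 2.02 after position adjustment. Lyve1 was well above background on all 3 1G11-mock arrays and on 2 of 3 1G11-SOD3 arrays. It went the other way, at -0.80 (limma adjusted p = 0.358) and -0.46 after position adjustment, and was not called.

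Of 5 markers of fibroblasts and mural cells, 3 were called higher in 1G11-SOD3 cells. These were Col1a1 at 3.10, Acta2 at 3.01 and Pdgfrb at 2.39, all called after position adjustment too, at 2.43, 2.61 and 2.20. Pdgfra, well above background on every array, was at 0.52 (limma adjusted p = 0.295) and not called. Rgs5, above background on no array, went the other way, at -0.54. The mean log2 intensity over the 5 was 9.29 to 9.69 in 1G11-mock cells and 11.1 to 11.4 in 1G11-SOD3 cells. The part of these markers in the higher Vegfd and lower Nrp2 readings was not tested. In RNA of a whole culture fewer cells of a type and less RNA per cell cannot be told apart. Of 5 epithelial markers, Epcam and Krt18 were above background on no array and Krt14, whose spot lies in the middle, was called higher at 4.82 and at 2.81 after adjustment. Cdh1 was well above background on all 3 1G11-SOD3 arrays and no 1G11-mock array, with a difference of 0.30 that was not called (limma adjusted p = 0.591). Krt8 was so on 1 1G11-SOD3 array only and was at -0.22, not called. The haematopoietic markers Ptprc and Cd68 were above background on no array.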

How the data were processed

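Total RNA of 3 1G11-mock and 3 1G11-SOD3 samples was hybridised in 1 colour (Cy3) to Agilent SurePrint Mouse G3 8x60K arrays, and spots were quantified with Feature Extraction 10.7.3.1 per the file headers. The files the authors deposited hold raw scanner intensity per spot, and their table of log2 values (median 7.52 in each column) was used as an alternative. That table was recomputed to within a median log2 difference of 0.0026 from median pixel values with control spots kept, so its scale, centring and direction are known.

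Here local background was corrected with normexp (offset 50) on mean intensities, control and outlier spots were left out, log2 values were quantile normalized and copies of a probe averaged. A probe was well above background on an array where no fewer of its spots carried that scanner mark than lacked it. limma 3.58.1 (R 4.3.3) compared the lines over 55681 probes with Benjamini-Hochberg adjustment. Probes were named through RefSeq accessions (31161 spots) or the array's own names (32683 spots in all). Intervals are 95% intervals. The position adjustment took a smooth surface of row and column (mgcv 1.9.3, basis 200, bright and dim spots apart, probes printed 10 times held out) off each array before normalization, and it lowered the median SD of the difference between lines among copies of a probe from 0.307 to 0.135. The script was tested on simulated data. The number of arrays limits the precision.

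The members, lists and tests were chosen with earlier results of these data known. Named were every member probe, Sod3, the called pathway genes (at most 5 each way) and the marker lists. Replicate numbers come from the sample titles and are also the slide columns. Deviations from the line means of same-numbered arrays correlated with r = 0.164, 0.103 and 0.156, and those of unlike-numbered arrays with r between -0.167 and 0.055. The numbers were therefore taken to pair the samples in the replicate block. The main fit did not use them, and what same-numbered samples share was not tested. Alternatives were no background correction, processed signals, median pixels, 75th percentile scaling, dim probes left out, outlier spots kept, the deposited log2 table, the replicate block, the position adjustment, the middle of the array left out, and each array left out in turn. Promoter stretches come from RefSeq (GRCm38.p6), in which all 10 members were found. Probe sequences are not reported here.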

Additional observations from a re-analysis of the deposited data

How the results depend on the processing

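Of the VEGF probes, Vegfd kept its direction and its call under every alternative listed, at log2 values of 1.34 to 1.65. The count of VEGF probes called, 3, became 5 with processed signals scaled to the 75th percentile and 5 with the replicate block, and lay between 2 and 3 with 1 array left out. The block changed no other call among the VEGF probes than those of Vegfa probe 2 and Flt1 probe 3. Over all probes it gave 2241 calls (1450 higher, 791 lower). Vegfb turned from -0.27 to 0.024 without 1G11-mock replicate 2 and to 0.018 without 1G11-SOD3 replicate 3, with a range of -0.56 to 0.024 over all arrays left out in turn. With processed signals Nrp2 probe 1 was at -1.03 (adjusted p = 0.0620) and not called, while Vegfa probe 1 was called at -1.07 (adjusted p = 0.0320). Calls over all probes, 1624, became 1057 with no background correction, 11082 (1204 higher, 9878 lower) with processed signals, 2612 (1532 higher, 1080 lower) with 75th percentile scaling, 920 (442 higher, 478 lower) with the position adjustment and 838 (298 higher, 540 lower) without the middle, and 748 to 1795 with 1 array left out; the split was 1038 higher and 586 lower as reported. The median of all probes was -0.52 with processed signals and -0.33 with 75th percentile scaling, against -0.03. The count of pathway genes called, 7, became 4 with the position adjustment (3 of the 7, and Cav1), 4 without the middle, and 4 to 9 with 1 array left out. It was 10 with processed signals (5 higher, 5 lower) and 10 with 75th percentile scaling (7 higher, 3 lower). With the replicate block it was 9, with dim probes left out 8 and with no background correction 6. Sod3 lay between 3.18 and 5.07 with 1 array left out. The causes were not tested. Signal over background limits Flt4, Vegfc, Pgf and Flt1.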
